A study of Mus musculus with 8 samples.

Results

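Prostaglandin E2 (PGE2) is a lipid mediator, and the genes described here are those that make it, sense it and break it down. They are 10 of the 45706 genes in the deposited tables, chosen by gene symbol: the cyclooxygenases Ptgs1 and Ptgs2, the prostaglandin E synthases Ptges, Ptges2 and Ptges3, the PGE2 receptors Ptger1, Ptger2, Ptger3 and Ptger4, and the degrading enzyme Hpgd. Bulk RNA sequencing measured them in sorted natural killer (NK) cells, in 4 libraries titled spNK (spleen) and 4 titled tuNK (tumour). The hosts of both groups were BALB/c mice with a CT26 β2m-/- tumour under the skin, that is, a murine colorectal carcinoma line that lacks β2-microglobulin. The deletion is in the injected tumour line, so both groups share a tumour-bearing host with intact β2m, and B2m in the sorted cells does not check it. No other treatment, age or sort marker is given in the labels. The tissue tag and source name of every sample name the opposite tissue to its title. Directions below follow the titles, which the column names of the deposited tables match, and with the tags they would all turn round. As given below, erythroid and B cell markers were higher in the libraries titled spNK. Mesenchymal and epithelial tumour cell markers summed higher in those titled tuNK. Whether each library is a different mouse is not stated in the labels, and the p-values cover the spread among these libraries alone, which may be technical.

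Cells make PGE2 from arachidonate, a fatty acid that phospholipases free from membranes. A cyclooxygenase converts arachidonate to prostaglandin H2, and a prostaglandin E synthase turns that into PGE2. PGE2 leaves the cell and acts on the receptors EP1 to EP4, encoded by Ptger1 to Ptger4. EP2 and EP4 raise cyclic AMP (cAMP) through the G protein subunit encoded by Gnas, EP3 mostly lowers it, and EP1 is linked to calcium. In tumours PGE2 is known as a mediator that restrains NK cells through EP2 and EP4.

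The promoters of 4 genes are printed because the results turn on them: both cyclooxygenases, the inducible synthase and the receptor with the most RNA in spNK, which fell. Each holds 250 bases before the start of the RefSeq gene and the first 30 bases from it, read 5′ to 3′ on the gene's strand (RefSeq, GRCm38.p6). Capitals mark matches to the motifs named below.
Ptgs1, chr2:36230176-36230455, plus strand: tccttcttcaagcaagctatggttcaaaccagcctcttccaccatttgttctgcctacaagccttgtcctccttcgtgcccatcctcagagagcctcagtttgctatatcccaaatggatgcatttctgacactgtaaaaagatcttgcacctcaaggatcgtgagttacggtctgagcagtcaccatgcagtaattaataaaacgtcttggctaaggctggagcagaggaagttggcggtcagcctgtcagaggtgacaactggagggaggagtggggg
Ptgs2, chr1:150099781-150100060, plus strand: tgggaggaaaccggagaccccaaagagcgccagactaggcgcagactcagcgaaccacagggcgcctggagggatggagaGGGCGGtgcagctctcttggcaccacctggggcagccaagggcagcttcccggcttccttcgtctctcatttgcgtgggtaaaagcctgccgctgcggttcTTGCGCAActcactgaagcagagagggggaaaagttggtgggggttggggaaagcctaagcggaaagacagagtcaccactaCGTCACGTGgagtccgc
Ptges, chr2:30903268-30903547, minus strand: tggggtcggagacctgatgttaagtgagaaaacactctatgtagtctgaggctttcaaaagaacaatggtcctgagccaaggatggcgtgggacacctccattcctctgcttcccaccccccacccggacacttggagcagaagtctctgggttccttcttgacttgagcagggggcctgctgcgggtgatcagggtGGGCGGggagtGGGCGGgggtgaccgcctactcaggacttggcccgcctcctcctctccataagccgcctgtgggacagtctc
Ptger4, chr15:5244158-5244437, minus strand: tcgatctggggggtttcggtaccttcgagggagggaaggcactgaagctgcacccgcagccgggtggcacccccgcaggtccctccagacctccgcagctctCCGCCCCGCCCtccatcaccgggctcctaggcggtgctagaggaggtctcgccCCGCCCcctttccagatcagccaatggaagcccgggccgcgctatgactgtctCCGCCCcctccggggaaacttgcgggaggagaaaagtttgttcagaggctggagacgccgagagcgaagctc
RefSeq promoters were found for 9 of the 10 members, all but Ptger1, and 7 motifs were searched on both strands. The Ptgs2 window held a cAMP response element half-site (TGACG, read here as CGTCA) at bases 14 to 18 from the start, counted from 1. That match overlapped an E-box (CACGTG) at bases 17 to 22. The window also held a C/EBP palindrome (TTGCGCAA) 69 to 62 bases before the start and a GC box (GGGCGG) 170 to 165 bases before it. The Ptges window held 2 GC boxes, the Ptger4 window held 4, of which 2 overlap by 1 base, and the Ptgs1 window held none of the 7 motifs. Among 32851 RefSeq promoters cut to the same 280 bases, the half-site stood in 19.9%, the E-box in 6.79%, the C/EBP palindrome in 0.18% and the GC box in 34.7%. The other 3 motifs, AP-1 (TGANTCA, 7.46%), NF-kB (19.4%) and the TATA box (TATAAA, 13.1%), had no match in these 4 windows. A match is a string of letters and shows no binding.

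Library totals ran from 38745733 to 53886933 estimated counts, and levels below are counts per 1000000 (CPM) after TMM scaling unless given as TPM, which also divides by transcript length. NK cell markers were present in every library, but all 12 were lower in tuNK, where they summed to 4070 to 5750 CPM against 12900 to 18200 in spNK. Of 32 genes expressed across leukocytes, 31 were lower, and their sum in tuNK was 26.1 to 34.2% of the spNK mean. Markers of fibroblasts and mesenchymal tumour cells summed to 10.9 to 43.7 CPM in spNK and 3130 to 4800 in tuNK, with all 13 tested members of 15 higher and 5 of the 15 at 0 in every spNK library. Epithelial tumour cell markers summed to 1.22 to 10 CPM in spNK and 47.7 to 69.3 in tuNK. Other lists were lower in tuNK: B cell markers summed to 267 to 1300 CPM in spNK and 24.5 to 38.3 in tuNK, dendritic cell markers to 405 to 665 and 106 to 130, and T cell markers to 196 to 233 and 77.5 to 123. Erythroid markers summed to 170 to 729 and 0.362 to 2.04 CPM, mast cell and basophil markers to 63.6 to 147 and 13.8 to 26.9, and endothelial markers to 136 to 170 and 41.7 to 69.4. Itgax was the largest part of the dendritic cell sum, at a mean of 220 of 528 CPM in spNK and 68.7 of 119 in tuNK. Trbc1 and Trbc2 made up most of the T cell sum, at 86.1 and 73.8 of 217 CPM in spNK and 47 and 34.8 of 101 in tuNK. Cd3e and Cd8b1 were near 0 in both groups, while Cd3g stood at 20.8 and 13.8 CPM. The mast cell and basophil sum was mostly Kit in spNK, at a mean of 62.1 of 91.6 CPM. Pecam1 (82.4 CPM in spNK, 51.1 in tuNK) and Vwf (65.9 and 0) made up most of the endothelial sum. Cdh5, Kdr, Tek, Emcn and Cldn5 were near 0 in both groups, so that sum says little about endothelial cells. Neutrophil markers overlapped as a sum, at 11.5 to 65.1 and 22.1 to 37.2 CPM. In tuNK that sum was almost all Mmp9, at a mean of 27.6 of 27.9 CPM, against 0.0913 CPM in spNK. Of 6 tested neutrophil genes 1 rose and 5 fell, and Ltf, Camp and Ngp had 0 counts in every tuNK library. The part of these other cells in the results below was not tested. In bulk RNA, fewer cells of a type and less RNA per cell cannot be told apart. Each tested member is therefore also given with libraries scaled to the 32 leukocyte genes, a step that shifts the all-gene median by 1.74 on the log2 scale and is called leukocyte-scaled.

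In tuNK, RNA of the synthesis genes was higher and that of the main receptor was lower. The edgeR quasi-likelihood test called 7 of the 9 members it could test, at an adjusted p under 0.05, where 69.6% of all 14006 genes tested were called. Of these members 6 were higher in tuNK (35.6% of all genes) and 1 was lower (34.0% of all genes). The groups did not overlap for 6 of the 9 tested members, and for 67.1% of all genes tested. After leukocyte scaling 6 members were again higher, where 79.0% of all genes were, and Ptger4 was again the 1 lower member, where 6.07% of all genes were. The share of members called was near that of all genes, so the count itself is no result about them, and the single differences follow. Ptgs2 reached the expression filter in 0 spNK libraries and Ptges and Ptger1 in 1 each, so these 3 were tested because they were high in tuNK.

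**Figure D1:**
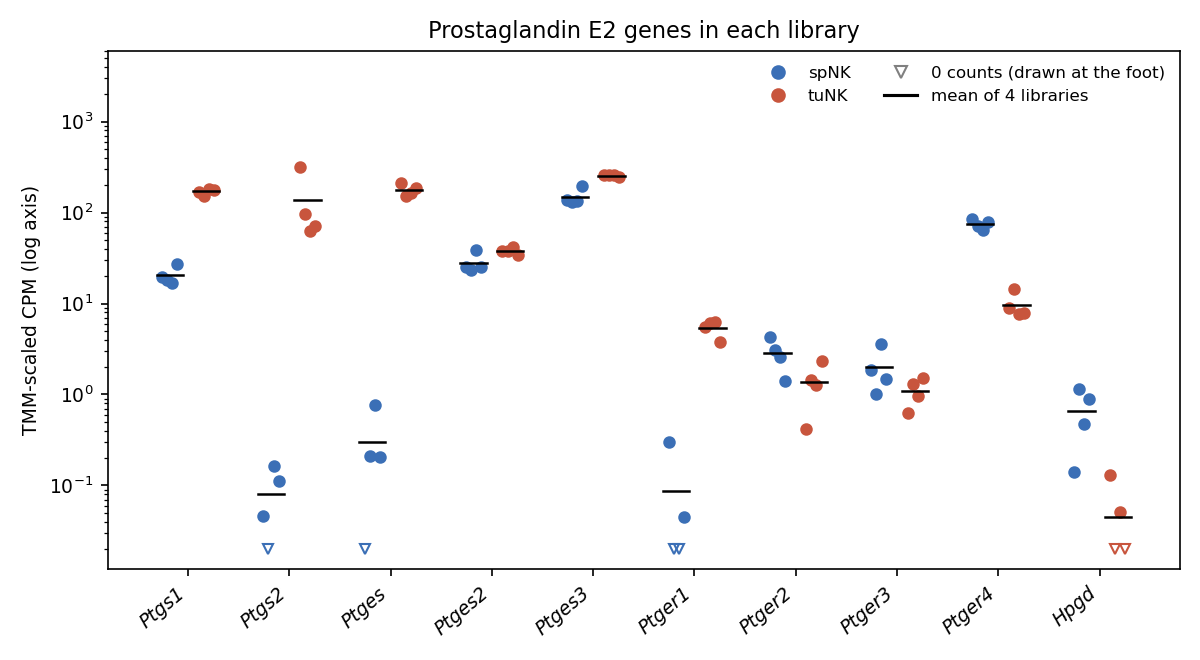
Level of each of the 10 genes in each library, in TMM-scaled CPM on a log axis, with spNK in blue and tuNK in red. Points are libraries, bars are means of 4, and open triangles at the foot are libraries with 0 counts, which a log axis cannot show. Ptgs1, Ptgs2, Ptges, Ptges3 and Ptger1 lie higher in every tuNK library, and Ptger4 and Hpgd lie lower.

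Ptgs1 (chromosome 2, 36230426 to 36252272, GRCm38) encodes cyclooxygenase-1, the form that many tissues make without a stimulus. It stood at 19.6, 18.2, 16.6 and 27.4 CPM in spNK 1 to 4 and at 170, 152, 183 and 178 CPM in tuNK 1 to 4. The groups were far apart, and the tuNK libraries lay close together. The means were 20.5 ± 4.78 and 171 ± 13.5 CPM (SD, n = 4), an 8.36-fold rise (log2 fold change 3.06 ± 0.16 SE, edgeR adjusted p = 5.605e-08). Leukocyte-scaled, its log2 fold change was 4.81. Of 9 platelet and megakaryocyte markers, whose cells are rich in Ptgs1, 8 fell, with Gp1ba, Treml1 and Clec1b at 0 in tuNK. Their sum was 428 to 756 CPM in spNK and 46.3 to 121 CPM in tuNK, and their part in the Ptgs1 level was not tested.

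Ptgs2 (chromosome 1, 150100031 to 150108227) encodes cyclooxygenase-2, the form that cells switch on after inflammatory and growth signals. The spNK libraries held 2, 0, 8 and 5 counts, or 0.0465, 0, 0.163 and 0.113 CPM. A count of 0 in spNK 2 allows up to 0.0533 CPM (3 counts, counting error only). The tuNK libraries held 318, 96.5, 62.1 and 71.9 CPM, from 2442 to 12301 counts. So Ptgs2 was close to undetected in spNK and present in every tuNK library, with tuNK 1 well above the other 3. The means were 0.0808 ± 0.0721 and 137 ± 122 CPM, and the fitted log2 fold change was 10.73 ± 0.96 (edgeR adjusted p = 1.833e-05; leukocyte-scaled 12.48). Without spNK 3 it was 11.36, and without tuNK 1 it was 9.88 ± 0.42 (adjusted p = 3.455e-07), 1 of 16 alternatives whose adjusted p ran from 8.743e-29 to 3.684e-04. Ptgs2 passed the expression filter through tuNK alone, so fits with that filter had to find it higher and add no support. With no filter its log2 fold change was 10.71 (edgeR adjusted p = 1.97e-04). With only 15 counts in spNK, the size of the rise is uncertain.

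Cyclooxygenase RNA as a whole was higher in each tuNK library, and its make-up differed. Per length, Ptgs1 and Ptgs2 together came to 8.57 ± 2.04 TPM in spNK and 95.8 ± 35.1 TPM in tuNK. Ptgs2 made up 0 to 0.613% of that sum in spNK. In tuNK 1 to 4 it made up 53.2, 27.7, 16.6 and 18.1%. Ptgs1 was thus the more abundant of the pair in 7 of the 8 libraries, and Ptgs2 in tuNK 1. Such shares do not change with the scaling of libraries.

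Beside Ptgs2 lie 2 noncoding genes that are annotated on its opposite strand. Ptgs2os starts 67 bases from the Ptgs2 start and runs away from it (chromosome 1, 150074873 to 150099963, minus strand). It had 0 counts in every spNK library and stood at 0.673, 1.89, 2.24 and 2.04 CPM in tuNK, at least 27.1-fold higher against a floor of 3 counts per library. Ptgs2os2 (150159043 to 150164948), past the end of Ptgs2, stood at 0, 0, 0 and 0.181 CPM in spNK and at 4.30, 4.05, 7.70 and 6.13 CPM in tuNK (log2 fold change 6.93, edgeR adjusted p = 8.863e-05). Both were therefore seen almost only where Ptgs2 was, but tuNK 1, the highest library for Ptgs2, was the lowest for Ptgs2os. These 2 genes were chosen for their place, after their values were seen.

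Ptges (chromosome 2, 30889471 to 30929863) encodes the microsomal PGE synthase that is induced together with cyclooxygenase-2 in inflammation. It stood at 0, 0.213, 0.776 and 0.204 CPM in spNK and at 209, 151, 163 and 185 CPM in tuNK. Every tuNK library was thus far above every spNK library, and the spread within tuNK was small. The means were 0.298 ± 0.333 and 177 ± 25.5 CPM, with a fitted log2 fold change of 9.17 ± 0.55 (edgeR adjusted p = 1.225e-06; leukocyte-scaled 10.88). All spNK libraries together held 59 counts of Ptges, 38 of them in spNK 3, and without that library the log2 fold change was 10.21. Ptges was kept by the expression filter because it was high in tuNK, so fits with that filter had to find it higher and add no support. With no filter its log2 fold change was 9.15 (edgeR adjusted p = 1.555e-05). The span given here is from GENCODE and starts upstream of the RefSeq start used for the printed Ptges window, which lies inside the span.

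Ptges3 (chromosome 10, 128058954 to 128077272) encodes p23, a co-chaperone of Hsp90 that also has PGE synthase activity. It stood at 138, 132, 135 and 194 CPM in spNK and at 256, 258, 260 and 247 CPM in tuNK. The groups did not overlap, and the rise from 150 ± 29.3 to 255 ± 6.12 CPM was 1.71-fold (log2 fold change 0.77 ± 0.12, edgeR adjusted p = 1.951e-04; leukocyte-scaled 2.51). Its deposited counts were not whole numbers, which estimated counts can be where reads match more than 1 sequence, so its level is uncertain to that extent.

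Ptges2 (chromosome 2, 32395896 to 32405772) encodes a membrane-associated PGE synthase made in most tissues. It stood at 25.2, 23.4, 38.3 and 25.0 CPM in spNK and at 37.7, 37.5, 41.4 and 33.9 CPM in tuNK. Here spNK 3 lay within the tuNK range, and the other 3 spNK libraries lay below it. The means were 28.0 ± 6.95 and 37.6 ± 3.07 CPM (log2 fold change 0.43 ± 0.16, edgeR adjusted p = 0.03156; leukocyte-scaled 2.15). This was the least certain of the 7 calls: it was made under 8 of 16 alternatives, with log2 fold changes of 0.32 to 2.15 and adjusted p of 5.919e-06 to 0.1424. It was lost on both TPM scales and without any 1 of spNK 1, 2 or 4 or tuNK 1, 2 or 3.

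Ptges was a trace of synthase RNA in spNK and a large part of it in tuNK. The 3 synthases summed to 116 ± 17.8 TPM in spNK and 231 ± 27.8 TPM in tuNK. Ptges made up 0 to 0.366% of the sum in spNK and 27.1 to 33.4% in tuNK. Ptges3 was the most abundant synthase RNA in all 8 libraries, at 73.2 to 86.4% in spNK and 56.8 to 60.5% in tuNK. Ptges2 made up 13.6 to 26.4% in spNK and 9.82 to 12.7% in tuNK, where it was below Ptges in each library.

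**Figure D2:**
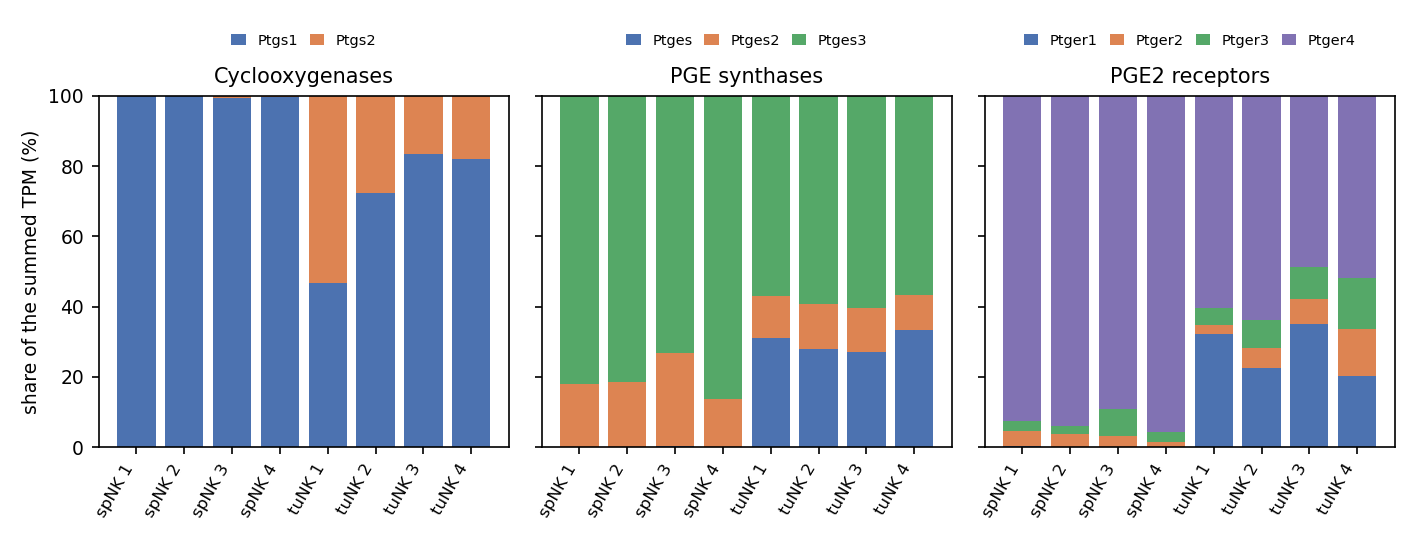
Make-up of cyclooxygenase, PGE synthase and PGE2 receptor RNA in each library, as a share of the summed TPM of each family (0 to 100%, stacked bars). Ptgs2, Ptges and Ptger1 are close to 0 in spNK and take 16.6 to 53.2%, 27.1 to 33.4% and 20.3 to 34.9% in tuNK.

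Mesenchymal and epithelial tumour cell markers summed higher in tuNK, as the synthesis genes did, while most other marker lists summed lower. As a share of the mesenchymal marker sum in tuNK 1 to 4, Ptgs1 was 3.55, 4.86, 5.86 and 5.20%, and Ptges was 4.35, 4.81, 5.21 and 5.40%. Ptgs2 was 6.63, 3.08, 1.98 and 2.10% of that sum, highest in tuNK 1. The part of mesenchymal cells in these levels was not tested. The macrophage and monocyte list, whose cells can make PGE2, summed to 578 to 823 CPM in spNK and 330 to 473 CPM in tuNK, of which Ccr2, a receptor that NK cells also carry, made up most. None of its 12 genes was at 0 in every tuNK library. Its defining markers Csf1r and Adgre1 were near 0 in tuNK, at 0.0836 and 0.0702 CPM, and Lyz2 fell from 96.4 to 2.16 CPM, while Cd14 rose from 0.280 to 60.4 CPM and Mrc1 from 0.400 to 3.67 CPM. These single markers were picked from their list after their values were seen.

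Ptger4 (chromosome 15, 5206661 to 5244187) encodes EP4, a receptor that raises cAMP, and it was the receptor with the most RNA in spNK. It stood at 85.0, 70.3, 63.9 and 79.1 CPM in spNK and at 8.83, 14.3, 7.70 and 7.94 CPM in tuNK. Every tuNK library lay far below every spNK library. The mean fell 7.68-fold, from 74.6 ± 9.35 to 9.70 ± 3.12 CPM (log2 fold change -2.94 ± 0.21, edgeR adjusted p = 6.526e-07). Leukocyte-scaled, the fall was 2.34-fold (log2 fold change -1.22 ± 0.18, adjusted p = 4.971e-05). Set against the summed leukocyte markers, Ptger4 was 0.392, 0.327, 0.373 and 0.409% in spNK and 0.162, 0.211, 0.148 and 0.121% in tuNK, without overlap. So it fell by more than the sum of the leukocyte markers, though single markers such as Itgb2 (log2 fold change -3.11), Tbx21 (-3.15) and Itga2 (-3.70), chosen after their values were seen, fell further. The B cell, T cell, dendritic cell and erythroid lists given above were also lower in tuNK, and their part in the Ptger4 level was not tested.

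Ptger2 (chromosome 14, 44988195 to 45003820) encodes EP2, which also raises cAMP, and its RNA was low in both groups. It stood at 4.33, 3.11, 2.61 and 1.40 CPM in spNK and at 0.414, 1.44, 1.27 and 2.32 CPM in tuNK. The groups overlapped, and the log2 fold change of -1.07 ± 0.52 did not pass (edgeR adjusted p = 0.0906). Its sign depended on the scaling: the leukocyte-scaled value was 0.64 (adjusted p = 0.2545). It was called lower under 3 of 16 alternatives, namely both TPM scales and without tuNK 4, and its adjusted p ran from 0.02595 to 0.2545.

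Ptger3 (chromosome 3, 157566892 to 157645888) encodes EP3, which mostly lowers cAMP, and was also low. It stood at 1.88, 1.01, 3.57 and 1.47 CPM in spNK and at 0.621, 1.30, 0.966 and 1.53 CPM in tuNK. The groups overlapped (log2 fold change -0.84 ± 0.50, edgeR adjusted p = 0.1518), and the leukocyte-scaled value was 0.80 (adjusted p = 0.1824). Over 16 alternatives its adjusted p ran from 0.03948 to 0.7271, and it was called lower only on the 2 TPM scales. Without spNK 3 and tuNK 1 its log2 fold change was -0.21. For Ptger2 and Ptger3, then, neither a direction nor the lack of a difference is settled by these libraries.

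Ptger1 (chromosome 8, 83666678 to 83672753) encodes EP1, the calcium-linked receptor. It held 13, 0, 0 and 2 counts in spNK and 214, 264, 249 and 147 counts in tuNK, or 0.302, 0, 0 and 0.0453 CPM against 5.54, 6.15, 6.33 and 3.75 CPM. The level in tuNK was low but present in each library (log2 fold change 6.01 ± 0.94, edgeR adjusted p = 2.389e-04; leukocyte-scaled 7.79), and without spNK 1 the log2 fold change was 8.36. Ptger1 was kept by the expression filter because of its level in tuNK, so fits with that filter had to find it higher and add no support. With no filter its log2 fold change was 5.98 (edgeR adjusted p = 4.774e-04). The use of strand in the counting is not given in the sources used here, so the level of Ptger1 is uncertain to the extent that reads from the opposite strand were counted.

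Receptor RNA as a whole was lower in each tuNK library, and its make-up differed. Per length, the 4 receptors summed to 28.9 ± 3.70 TPM in spNK and 5.15 ± 1.11 TPM in tuNK. Ptger4 made up 89.2 to 95.7% of the sum in spNK and 48.7 to 63.9% in tuNK, still the largest share in each library. Ptger1 followed in tuNK at 20.3 to 34.9%, against 0 to 0.310% in spNK. Ptger2 took 1.5 to 4.16% in spNK and 2.53 to 13.4% in tuNK, and Ptger3 took 2.20 to 7.54% and 4.94 to 14.5%. In spNK the order by TPM was Ptger4 (26.8 ± 3.76), then Ptger3 (1.08 ± 0.575) and Ptger2 (0.910 ± 0.393), which did not differ beyond their spread, then Ptger1 (0.0298 ± 0.0499). In tuNK it was Ptger4 (2.94 ± 0.988) and Ptger1 (1.39 ± 0.335), then Ptger3 (0.459 ± 0.168) and Ptger2 (0.354 ± 0.190), whose ranges overlapped.

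**Figure D3:**
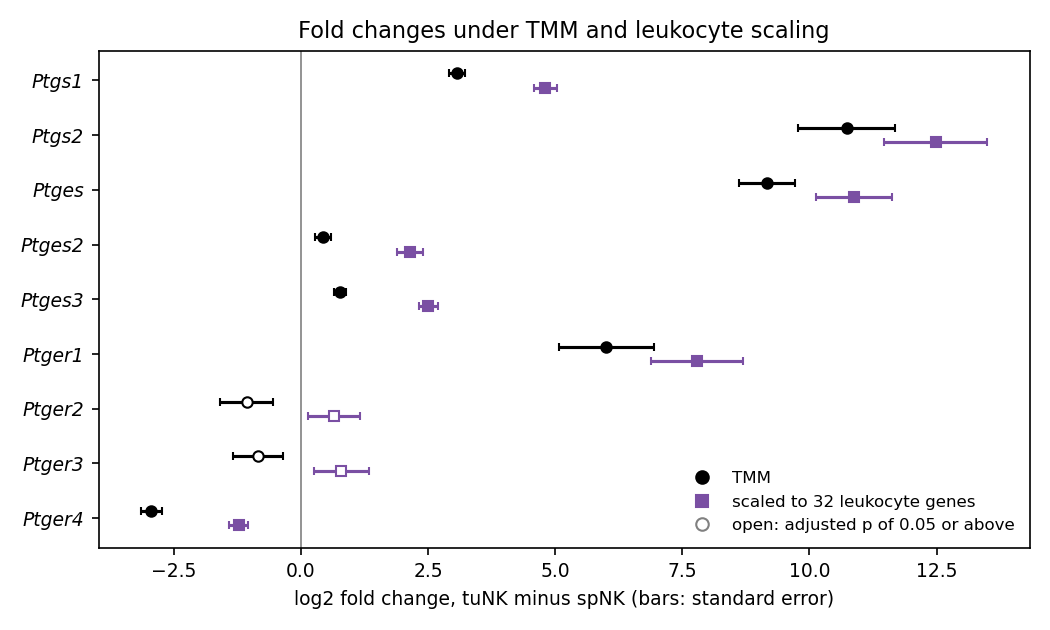
Log2 fold change of the 9 tested genes, tuNK minus spNK, with TMM scaling (black circles) and with scaling to 32 leukocyte genes (purple squares); bars are standard errors and open symbols did not pass an adjusted p of 0.05. Leukocyte scaling moves every gene to the right, and Ptger4 alone stays below 0, at -1.22.

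Hpgd (chromosome 8, 56294585 to 56321043) encodes the dehydrogenase that inactivates PGE2. It held 6, 64, 23 and 39 counts in spNK and 5, 0, 2 and 0 counts in tuNK, or 0.140, 1.14, 0.470 and 0.884 CPM against 0.129, 0, 0.0508 and 0 CPM. The ranges did not overlap, though spNK 1 and tuNK 1 were nearly level. The gene failed the filter on low counts, so it has no result among the 14006 genes. With no filter its log2 fold change was -3.81 ± 1.25 (edgeR adjusted p = 0.02057), and without tuNK 1 the log2 fold change was -5.10. Hpgd can pass the filter only through spNK, where it reached it in 3 of 4 libraries, so fits that keep it through the filter had to find it lower and add no support. The 0 counts in tuNK 2 and tuNK 4 allow up to 0.0699 and 0.0766 CPM. Its RNA was thus scarce in both groups.

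The genes upstream and downstream of PGE2 were read from the same fit, in 9 lists. The all-gene median log2 fold change was 0.02, or 1.76 leukocyte-scaled, and each list is to be read beside it. Of all genes tested, 35.6% rose and 34.0% fell, and leukocyte-scaled 79.0% were higher and 6.07% lower. For single genes of these lists the leukocyte-scaled value is given where it changes the sign or the call.

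Of 16 genes in the list of arachidonate release, phospholipases and the activator Plaa, 6 were tested, 3 rose and 2 fell (median 0.60, leukocyte-scaled 2.35). Pla2g4a, the cytosolic phospholipase that feeds cyclooxygenases, rose from 6.35 ± 2.23 to 61.3 ± 5.13 CPM (log2 fold change 3.27, edgeR adjusted p = 1.514e-06). Pla2g6 rose by 1.44 on the log2 scale, and Pla2g4c, at 2.87 CPM in spNK and 0.163 in tuNK, fell by 4.10, or by 5.18 without tuNK 2. Plaa, a phospholipase activator, fell by 0.39 but was higher when leukocyte-scaled (1.35).

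Of 8 tested enzymes that make or reduce other prostanoids, from a list of 9, 1 rose and 5 fell, where 34.0% of all genes fell (median -0.90). Leukocyte-scaled, 4 were higher and 2 lower (median 0.82). Tbxas1, which makes thromboxane, fell from 5.95 ± 3.16 to 0.167 ± 0.206 CPM (log2 fold change -5.10, or -6.40 without tuNK 2 and -4.49 without spNK 3 and tuNK 1). Cbr1, a carbonyl reductase that can act on PGE2, fell by 2.84 on the log2 scale. Ptgr1, which reduces prostaglandin breakdown products, fell by 1.38, and its leukocyte-scaled value of 0.33 did not pass. Ptgds, a prostaglandin D synthase, had 0 counts in spNK and 4.68 ± 1.06 CPM in tuNK, at least 74.2-fold higher. The medians of lists with a gene at 0 in 1 group were the same with that gene set to its bound.

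Of 5 transporters, 3 rose and 1 fell (median 1.14, leukocyte-scaled 2.90). Slco2a1, which takes up prostaglandins, rose from 0.426 ± 0.328 to 5.28 ± 0.906 CPM (log2 fold change 3.63, or 4.23 without spNK 3), and Abcc4, which can export PGE2, from 23.8 ± 6.59 to 45.7 ± 1.53 CPM (log2 fold change 0.94). Slco4a1 rose from 1.18 to 31.0 CPM, and Slco3a1 fell from 6.83 to 1.51 CPM, with a leukocyte-scaled value of -0.46 that did not pass. Of 3 tested genes in the list of other prostanoid receptors, 1 rose and 2 fell (median -2.75, leukocyte-scaled -1.16). The 1 that rose, Ptgfrn, is not itself a prostanoid receptor gene, and the tested receptor genes Tbxa2r and Ptgir fell. The thromboxane receptor gene Tbxa2r fell from 7.17 ± 2.72 to 0.498 ± 0.18 CPM (log2 fold change -3.84), and Ptgfrn, which encodes a protein that binds a prostaglandin receptor, rose from 0.668 to 7.66 CPM. The prostacyclin receptor gene Ptgir fell by 2.76 on the log2 scale (edgeR adjusted p = 0.01151) from a low level, or by 3.58 without tuNK 2. Over 16 alternatives its adjusted p ran from 0.002879 to 0.2125, and the call was lost leukocyte-scaled, with a replicate block (0.05455) and without spNK 3 and tuNK 1 (0.06461).

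In the leukotriene and lipoxygenase arm, which uses the same arachidonate, 1 of 7 tested genes rose and 2 fell (median -1.06, leukocyte-scaled 0.42). Without spNK 3 and tuNK 1 the arm held 6 calls in place of 3. The platelet lipoxygenase gene Alox12 stood at 41.5 to 76.9 CPM in spNK and at 0, 0, 0 and 0.281 CPM in tuNK. The summed platelet markers given above, and Tbxas1 and Tbxa2r, were lower in tuNK as well, and the part of platelets in these falls was not tested. Cysltr2, a leukotriene receptor gene, fell by 1.95 on the log2 scale, but its leukocyte-scaled value of -0.21 did not pass. Lta4h, which leads to leukotriene B4, rose by 0.30 on the log2 scale and was not called on either TPM scale. Cysltr1 stood at 0.437 and 0.126 CPM and did not pass (adjusted p = 0.1072), but was called lower without spNK 3 and tuNK 1 (0.04429; range over 16 alternatives 0.04429 to 0.9876).

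Genes that carry the cAMP signal of EP2 and EP4 did not move as 1 group. Of 25 tested members of 31, 6 rose and 12 fell (median -0.24), and leukocyte-scaled 19 were higher and 0 lower (median 1.5), close to the 79.0% of all genes that were higher on that scale. Adcy7, an adenylyl cyclase of immune cells, fell from 169 ± 24.4 to 61.6 ± 5.36 CPM, and Prkacb, a catalytic subunit of protein kinase A, from 405 ± 49.7 to 160 ± 13.0 CPM. Their leukocyte-scaled values had the other sign, at 0.28 (not called) and 0.41. The cyclase gene Adcy3 fell by 1.98 on the log2 scale (leukocyte-scaled -0.26, not called). Rapgef3, a cAMP-activated exchange factor, rose from 0.323 ± 0.113 to 9.37 ± 1.21 CPM (log2 fold change 4.84).

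Genes known to respond to cAMP in many cells were higher or not called: of 10 tested members of 11, 6 rose and 0 fell (median 1.83, leukocyte-scaled 3.6 with 10 higher). Among the 10, Areg, an epidermal growth factor family ligand, had 0 counts in spNK and 4.94 ± 0.623 CPM in tuNK, at least 78.3-fold higher. Dusp1, a phosphatase of MAP kinases, rose from 12.5 ± 2.05 to 426 ± 192 CPM, Sik1 from 1.48 ± 1.01 to 28.5 ± 15.6 CPM, and the AP-1 gene Fosl2 from 22.8 ± 4.21 to 165 ± 84.6 CPM. These genes answer many stimuli besides cAMP.

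Of 11 tested genes that induce or regulate Ptgs2, 5 rose and 2 fell (median 0.18, leukocyte-scaled 1.90). Il1r1, the signalling receptor for interleukin-1, rose from 0.358 ± 0.112 to 14.1 ± 1.33 CPM (log2 fold change 5.29, edgeR adjusted p = 5.433e-08). Its partner Il1rap fell from 21.6 ± 1.51 to 5.93 ± 0.421 CPM, with a leukocyte-scaled value of -0.12 that did not pass. Cebpb, whose protein binds C/EBP sites such as the palindrome printed in the Ptgs2 window, rose from 5.81 ± 0.385 to 74.7 ± 29.2 CPM. The hypoxia factor gene Hif1a rose from 61.4 ± 6.04 to 146 ± 15.7 CPM.

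Ptges3 also belongs to the Hsp90 chaperone machinery. Of 8 Hsp90 genes and co-chaperones, 6 rose and 1 fell, where 35.6% of all genes rose (median 0.68), and leukocyte-scaled 8 were higher, where 79.0% of all genes were (median 2.41). The list held 4 calls in place of 7 without spNK 1, without tuNK 1, without spNK 3 and tuNK 1 together, and on log2(TPM + 1). Hsp90ab1 rose from 996 ± 187 to 2510 ± 195 CPM (log2 fold change 1.34) and Hsp90b1 from 418 to 810 CPM. The immunophilin genes Fkbp5 and Fkbp4 rose by 0.98 and 0.64 on the log2 scale, and Fkbp4 was not called on log2(TPM + 1) (adjusted p = 0.0502).

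**Figure D4:**
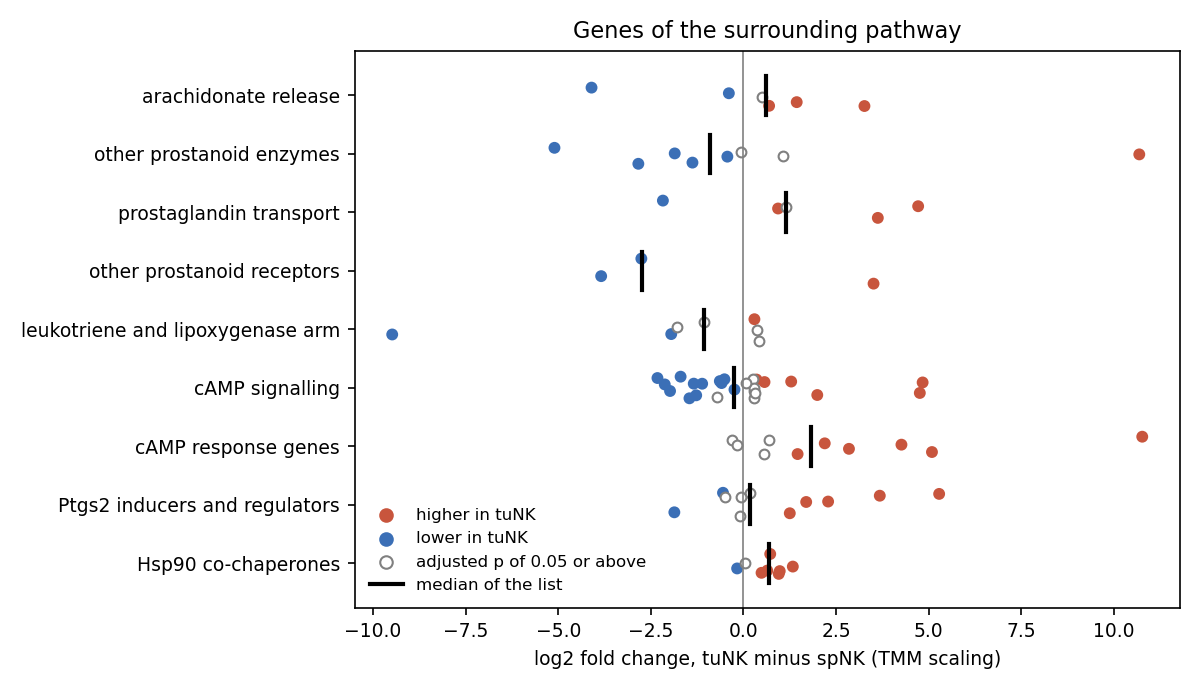
Log2 fold change (tuNK minus spNK, TMM scaling) of each tested gene in the 9 lists around PGE2; filled points passed an adjusted p of 0.05, and black bars are list medians. The cAMP response genes lie furthest to the right by their median, at 1.83, and the other prostanoid receptors furthest to the left, at -2.75.

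Within tuNK, some members were steady and others were not. Divided by the median of the 4 libraries, Ptgs2 was 3.78, 1.15, 0.738 and 0.854, while Ptgs1 ran from 0.874 to 1.05 and Ptges from 0.868 to 1.2. Ptger4 was 1.05, 1.71, 0.918 and 0.947, and the low Ptger2, at 0.414 to 2.32 CPM, covered a wider range for its level than Ptgs2. The order of the tuNK libraries for Dusp1 was like that for Ptgs2 in having tuNK 1 highest and tuNK 3 lowest, at 1.56, 1.26, 0.553 and 0.742. The same held for Cebpb (1.85 in tuNK 1), Fosl2 (1.74), and Nr4a1 (2.28) and Zfp36 (2.31), the last pair chosen after their values were seen. The mesenchymal marker sum was also highest in tuNK 1, at 1.47, and the NK marker sum was lowest there, at 0.821; their part in the Ptgs2 level was not tested. With 4 libraries this is a description only.

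**Figure D5:**
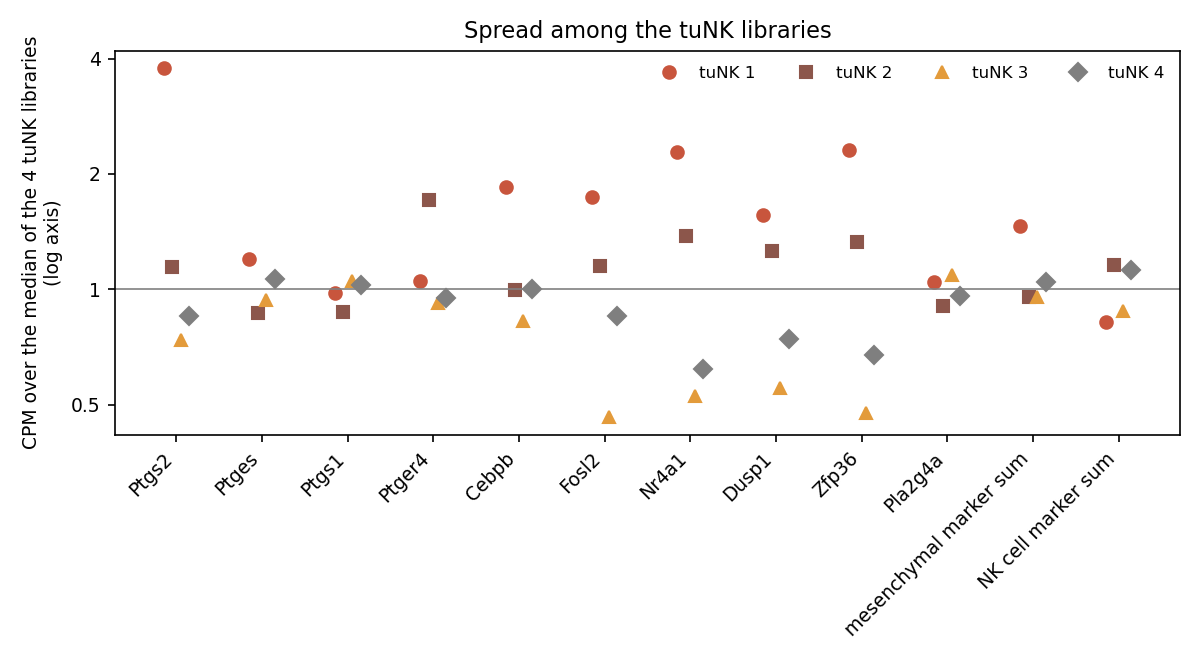
CPM in each tuNK library divided by the median of the 4, on a log axis, for members, for named genes and for the summed mesenchymal and NK markers. Ptgs2 in tuNK 1 stands at 3.78, above every other point, while Ptgs1 and Ptges stay between 0.868 and 1.2 and Ptger4 reaches 1.71 in tuNK 2.

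The genes whose pattern over the 8 libraries was most like that of Ptgs2, by Pearson's r of log2(CPM + 1) among 8825 candidates, were Klf4 (0.999), Cebpb (0.9988) and Sox2 (0.9979). For Ptger4 they were Prr5l (0.9982), Prkcb (0.9978) and Synj1 (0.9978). Such values are common here and follow the difference between the 2 groups: 1381 genes had an r over 0.95 with Ptgs2 and 1543 with Ptger4. The groups also differ in the marker sums given above, while their library totals overlap. Klf4 stood at 4.24 ± 0.563 CPM in spNK and 119 ± 63.7 in tuNK, and Sox2 at 0 and 21.8 ± 8.84. Prr5l went from 80.1 ± 5.58 to 13.5 ± 4.46 CPM, Prkcb from 103 ± 8.99 to 23.4 ± 4.81 and Synj1 from 50.4 ± 1.61 to 16.4 ± 2.74, though Synj1 was not lower when leukocyte-scaled (0.11).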

How the data were processed

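RNA of sorted NK cells was sequenced in 4 spNK and 4 tuNK libraries, from poly(A)-selected RNA by a directional kit, per the labels' protocols. Reads were checked with FastQC 0.11.9 and processed with STAR and Salmon on GRCm38 (mm10), per the submitters' processing notes. Versions of STAR and Salmon, the annotation and the use of strand in counting are each not given in the sources used here. Per gene, the authors deposited estimated counts, without normalisation, and 7.9 to 8.82% of each library's values had decimals. They also deposited TPM, scaled for length and to a sum of 1000000 per library. Both tables were read through their column names, which match the titles, and 0 columns were left without a sample.

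Estimated counts were rounded. Genes were filtered with filterByExpr, scaled with TMM and compared with the quasi-likelihood F test of edgeR 4.0.16 (R 4.3.3) with robust settings, group as the only term and Benjamini-Hochberg adjustment over 14006 genes (threshold 0.05). On simulated counts the test recovered 4 of 50 genes changed 1.5-fold and 25 of 50 changed 2-fold. At 4-fold and at 10-fold it recovered 50 of 50. Only 50 of 14006 genes were changed at each fold, far fewer than were called in the data, so the shares recovered may differ here. Every simulated gene was given the same dispersion, and the changed genes were drawn from those with a mean of at least 50 counts. The shares are thus no measure of the power for single genes in the data. Totals of 38745733 to 53886933 counts put the 3-count floor at 0.0533 to 0.0777 CPM, which allows for counting error but not for PCR copies of a molecule. Positions are GENCODE M21 (45143 of 45706 identifiers), and promoters are RefSeq.

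The 10 members, the gene lists and the tests were chosen with earlier results of these data known. Besides the members, up to 4 genes per list with the smallest adjusted p were named, marker genes as needed, and 3 genes most like the member with the largest rise and with the largest fall. Alternatives were DESeq2 size factors, scaling to leukocyte genes, no filter, DESeq2 1.42.0, limma 3.58.1 on log2(TPM + 1) and log2(TPM + 0.1), a replicate block and leaving out each library. Leaving out spNK 3 and tuNK 1 together was chosen after seeing the data.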

Additional observations from a re-analysis of the deposited data

Results flagged for a closer look

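Among 117 groups of 4 libraries (each a gene in spNK or in tuNK), 12 had 1 library far from the other 3 by Dixon's criterion. Chance alone gives about 1 in 20 for values that spread normally, which counts near 0 do not. Where only 1 library holds counts, as for Alox12 in tuNK and Ptgs2os2 in spNK, the flag is bound to occur. Ptgs2 was 318 CPM in tuNK 1, against 62.1 to 96.5 in the other 3. Ptges2 was 38.3 CPM in spNK 3, against 23.4 to 25.2, and Ptges3 was 194 CPM in spNK 4, against 132 to 138. Ptger1 was 0.302 CPM in spNK 1, from 13 counts, against 0 to 0.0453. Ptger4 was 14.3 CPM in tuNK 2, against 7.70 to 8.83. Among the genes around the pathway, Alox12 was 76.9 CPM in spNK 4, against 41.5 to 43.7, and 0.281 CPM in tuNK 4, against 0. Tbxa2r was 0.230 CPM in tuNK 4, against 0.569 to 0.610. Cebpb was 5.24 CPM in spNK 1, against 5.94 to 6.05. Hsp90ab1 was 2810 CPM in tuNK 1, against 2400 to 2440, and Hsp90b1 was 972 CPM there, against 751 to 765. Ptgs2os2 was 0.181 CPM in spNK 4, against 0.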

How the results depend on the processing

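Of 149 values of single members under alternatives, 134 kept their direction and their side of the threshold, 8 fell short of it, all of Ptges2, 5 newly passed it, and 2 changed sign. The 134 include 5 values of Hpgd from fits that had to find it lower, which add no support. They also include values of Ptgs2, Ptges and Ptger1, which the filter kept because they were high in tuNK. Those from fits with the filter had to be higher and add no support either. With no filter Ptgs2, Ptges and Ptger1 were still called higher. Leukocyte scaling gave 11066 genes higher and 850 lower in tuNK. It turned Ptger2 (0.64), Ptger3 (0.80), Plaa (1.35), Ptgr1 (0.33), Adcy7 (0.28), Prkacb (0.41) and Synj1 (0.11) positive, and raised the calls among cAMP response genes from 6 to 10, since its construction moves every gene up. The members called lower numbered 2 with no filter and 3 on either TPM scale, against 1, and 1 to 3 with each library left out. With a library left out, the added member was Hpgd without spNK 1 or without tuNK 1, 2 or 3. Without tuNK 4 the added members were Hpgd and Ptger2. Those Hpgd calls were bound to be lower, since the filter keeps the gene only through spNK. Calls for arachidonate release were 5, 9 with no filter and up to 8 with a library left out. Calls for the leukotriene arm were 3, 5 with no filter and 6 without spNK 3 and tuNK 1. Calls for Hsp90 co-chaperones were 7, 4 on log2(TPM + 1), 4 without spNK 3 and tuNK 1, and 4 to 6 with each library left out. The causes of these shifts were not tested. The labels give both groups the replicate numbers 1 to 4, but nothing says that a number marks a shared mouse or day. Deviations of same-numbered libraries correlated at 0.03, 0.105, 0.187 and 0, and the best partners were 2, 2, 3 and 2, so the numbers were not used as pairs. With a replicate block, 4926 genes were higher and 4629 lower, 6 members were higher and 1 lower, and Ptgs2 stood at 10.55. Depth limits Ptgs2, Ptges and Ptger1 in spNK and Hpgd in tuNK, which rest on 15, 59, 15 and 7 counts.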
